A study of Mus musculus with 30 samples.

Results

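The chemokine gene Cxcl12 and its receptor gene Cxcr4 were followed across the cell populations of the early postnatal mouse testis. Both were found by symbol, 1 row each, in the deposited expression table, so the pair is 2 of 20889 genes. The table has 11 columns for 16 RNA libraries of C57BL/6 mouse testis cells, and each column holds 1 value per gene.

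CXCL12 is a small secreted protein that attracts cells and retains them where it is made, and CXCR4 is a seven-pass membrane receptor that signals through inhibitory G proteins. ACKR3, which the table lists under its older symbol Cxcr7, is an alternative receptor that binds and clears CXCL12. In the mouse embryo the pair guides primordial germ cells to the gonad, and in the postnatal mouse testis CXCL12 from somatic cells acts on CXCR4 of undifferentiated spermatogonia, the pool that holds the stem cells. The chemokine is also made by fibroblast-like stromal cells of many organs, and the receptor is also carried by leukocytes and endothelial cells.

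The 250 bases before the RefSeq start of each gene are shown because factors that bind there are among the genes measured below. Both stretches come from the RefSeq tables of build GRCm38.p6, whereas the expression table was made on mm9. The Cxcl12 stretch is chr6:117168285-117168534 on the plus strand and the Cxcr4 stretch is chr1:128592300-128592549 on the minus strand. Each is written 5′ to 3′ along the gene, with capitals for the matches of a motif search on both strands.
Cxcl12: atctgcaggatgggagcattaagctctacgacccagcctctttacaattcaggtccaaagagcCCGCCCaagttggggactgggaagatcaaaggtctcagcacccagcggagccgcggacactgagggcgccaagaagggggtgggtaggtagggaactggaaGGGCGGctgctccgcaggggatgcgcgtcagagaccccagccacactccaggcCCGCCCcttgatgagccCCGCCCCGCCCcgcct
Cxcr4: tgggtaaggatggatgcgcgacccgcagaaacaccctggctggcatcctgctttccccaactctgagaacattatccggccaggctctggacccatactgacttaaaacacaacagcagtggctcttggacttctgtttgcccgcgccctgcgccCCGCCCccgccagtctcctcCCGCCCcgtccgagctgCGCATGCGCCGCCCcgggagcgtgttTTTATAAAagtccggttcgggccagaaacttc
The motifs searched were GCATGCG, the middle of the site of the factor NRF1, chosen after the stretches had been read, GGGCGG, the GC box, TATAAA, the TATA box, CCAAT, and ACGTG, the core bound by hypoxia-inducible factors. The Cxcr4 stretch holds GCATGCG on both strands, at 57 to 51 and, overlapping it, at 58 to 52 bases before the start, and 3.02% of 32851 such stretches hold that word. It also holds 3 GC boxes, the nearest at 50 to 45 bases before the start, and 2 TATAAA matches, one on each strand, which overlap. The Cxcl12 stretch holds 5 GC boxes and no match to the other motifs; 2 of these boxes share 1 base. A GC box is found in 32.7% and TATAAA in 12.4% of all such stretches, and neither gene has a match to CCAAT or ACGTG, which 33.8% and 16.6% of them hold. A match describes letters and is no evidence of binding.

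The OCT4-GFP populations (P0 and P7) and the ID4-GFP population (P7) were sorted by fluorescence from reporter mice in which GFP marks expression of these early germ cell genes. A further population is labelled P7 VASA THY1; the protocol names VASA-GFP sorting at P0 alone, so the age of that library is uncertain. KIT cells (P7, P12, P14) and THY1 cells (P0, P7, P12, P14) were selected with magnetic beads. The beads were directed against KIT, the receptor of differentiating spermatogonia, and against THY1, a surface protein of undifferentiated spermatogonia among other cells. P stands for postnatal day. Libraries were made in pairs for KIT cells at P7 and P12 and for THY1 cells at P0, P7 and P12, and each of these 5 columns gives 1 value for its 2 libraries; the other 6 columns rest on 1 library each. Replicate spread is therefore unknown, differences were not tested, and the values describe these libraries alone. Whether animals were pooled is not given in the sources used here. Values are FPKM, fragments scaled by transcript length and library size, so levels of different genes can be compared within a column. The top gene held 0.847% of the summed FPKM in P7 ID4-GFP and 21.6% to 41.0% in the other columns. The upper quartile lay between 17.2 and 18.2 FPKM in every column. The part of that unlike make-up in the P7 ID4-GFP differences was not tested. A difference is that of log2(FPKM + 1), which understates changes of low genes, and is counted at 2-fold or more (1 on that scale) where the higher column reached 5 FPKM.

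Germ cell genes were present in every column: Ddx4, the germ cell helicase gene, was lowest in P0 THY1 at 65.0 FPKM and highest in P14 THY1 at 248 FPKM. Markers of other testis cells differed widely between columns. The summed level of 9 fibroblast and stroma genes ran from 55.7 FPKM in P7 ID4-GFP to 6857 FPKM in P0 THY1, and that of 10 macrophage genes from 5.43 FPKM in P14 KIT to 406 FPKM in P0 THY1. In such bulk samples fewer cells of a type and less RNA per cell cannot be told apart. Read depth is not in the table. Low values were most often 0.96 to 2.04 times those of P14 THY1 in 9 columns, a step shared by 16.3% to 29.2% of the genes compared. P0 OCT4-GFP had the largest of these steps. In P7 THY1 the step was 3.72, shared by 14.8% of the genes compared. A coarser step can stand for fewer counted fragments. In a column of 2 libraries a step need not be a single fragment, so the steps are a rough guide to depth.

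Cxcl12 was highest in the newborn THY1 cells and lowest in the newborn OCT4-GFP cells. At P0, OCT4-GFP cells held 1.76 FPKM and THY1 cells 70.3 FPKM. At P7 it stood at 3.43 FPKM in ID4-GFP, 8.14 FPKM in OCT4-GFP, 5.32 FPKM in VASA THY1 and 9.68 FPKM in KIT cells, and at 11.2 FPKM in THY1 cells. KIT cells held 5.13 FPKM at P12 and 5.77 FPKM at P14, and THY1 cells held 15.6 FPKM at P12 and 24.1 FPKM at P14. The 4 highest columns were thus the 4 THY1 columns, and the highest exceeded the lowest 39.97 times and the second highest 2.91 times. From the second highest down, neighbours in the order differed by less than 2-fold, the last pair, P7 ID4-GFP and P0 OCT4-GFP, by 1.95 times.

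**Figure D1:**
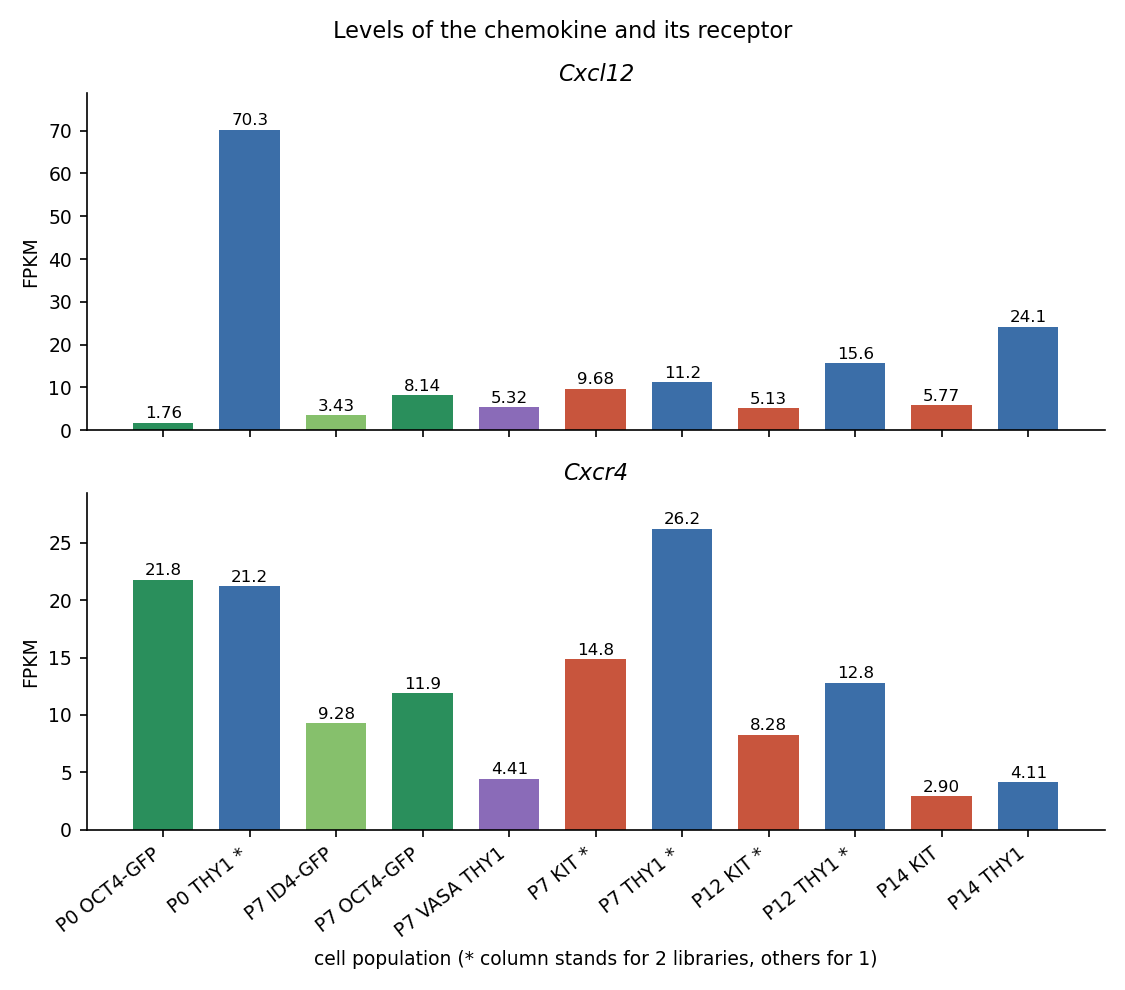
Level of Cxcl12 (top) and Cxcr4 (bottom) in FPKM in each of the 11 populations, with 1 bar per column of the table and no error bars, since the table holds 1 value per population; colours mark the selection. Cxcl12 has 1 tall bar of 70.3 FPKM in P0 THY1, whereas Cxcr4 is tall in both P0 populations and in P7 THY1 and lowest in P14 KIT at 2.90 FPKM.

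Cxcr4 was highest at P0 and in P7 THY1 cells and lowest at P14. At P0, OCT4-GFP cells held 21.8 FPKM and THY1 cells 21.2 FPKM. At P7 it stood at 9.28 FPKM in ID4-GFP, 11.9 FPKM in OCT4-GFP, 4.41 FPKM in VASA THY1 and 14.8 FPKM in KIT cells, and at 26.2 FPKM in THY1 cells. KIT cells held 8.28 FPKM at P12 and 2.90 FPKM at P14, and THY1 cells held 12.8 FPKM at P12 and 4.11 FPKM at P14. The range was 9.03-fold, narrower than that of Cxcl12, and neighbours in the order of the 11 columns differed by at most 1.88 times, so no break separates high from low columns. The VASA THY1 library, 4.41 FPKM, lay next to P14 THY1 and away from the other P7 columns.

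KIT cells had less of both transcripts than THY1 cells at each of 3 ages, by unequal amounts. For Cxcr4 the KIT minus THY1 difference was -0.78 at P7, -0.57 at P12 and -0.39 at P14, and none reached 2-fold; at P14 neither column reached 5 FPKM, so that pair could not be counted. For Cxcl12 the difference was -0.19 at P7, -1.44 at P12 and -1.89 at P14, with levels 1.16, 3.05 and 4.18 times as high in THY1 as in KIT cells. Cxcl12 thus passed the 2-fold rule at P12 and P14. Of all genes that could be counted, 2.78% were higher and 2.73% lower in KIT cells by that rule at P7, 4.66% and 6.51% at P12, and 8.58% and 15.7% at P14. With the VASA THY1 library in the place of the P7 THY1 column, the P7 differences turned to 0.76 for Cxcl12 and 1.55 for Cxcr4. Fibroblast and stroma genes summed to 371, 200 and 374 FPKM in KIT cells at P7, P12 and P14, against 325, 467 and 1374 FPKM in THY1 cells; their part in the Cxcl12 differences was not tested.

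Over age, the ligand and the receptor took different courses in THY1 cells. Cxcl12 was lower at P7 than at P0 (11.2 against 70.3 FPKM, difference -2.54), which also passes a 4-fold rule; 6.34% of genes were higher and 17.2% lower by 2-fold, and 5.86% lower by 4-fold. It was then higher at each step, with differences of 0.44 at P12 against P7 and 0.60 at P14 against P12, both under 2-fold; with VASA THY1 for P7 THY1 the first was 1.40, past 2-fold. After division by the germ cell level the second was -0.0325, where the median of all genes was -0.69. Cxcr4 differed by 0.29 between P7 and P0 (-0.48 after division by the germ cell level, where the median of all genes was -0.77), then by -0.98 between P12 and P7, and by -1.43 between P14 and P12. The last passes the 2-fold rule, by which 15.9% of genes were higher and 16.6% lower, and the P12 against P7 difference lies just short of it, where 6.1% were higher and 2.32% lower. With VASA THY1 in the place of P7 THY1, Cxcr4 differed by -2.04 and 1.35 at those first steps. In KIT cells Cxcr4 was lower at each later age, with differences of -0.77 at P12 against P7 and -1.25 at P14 against P12. The second difference passes the rule, with 5.52% of genes higher and 11.2% lower in that comparison; after quantile normalization it was -0.89. Cxcl12 in KIT cells differed by -0.80 and 0.14 over the same steps and passed the rule at neither. At the first of them 5.83% of genes were higher and 4.07% lower.

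Markers of other cells differed over the same ages. Sertoli genes summed to 137 FPKM in P14 and 2211 FPKM in P12 THY1 cells, and to 173 FPKM in P14 and 880 FPKM in P12 KIT cells. Endothelial genes, whose cells carry CXCR4, summed to 33.5 FPKM in P14 and 98.7 FPKM in P12 THY1 cells, and to 8.34 FPKM in P14 and 59.1 FPKM in P12 KIT cells. Mast cell genes summed to 0.0368 FPKM in P12 and 114 FPKM in P7 THY1 cells. Macrophage genes summed to 49.0, 89.0 and 83.8 FPKM in P7, P12 and P14 THY1 cells, and to 25.0, 16.5 and 5.43 FPKM in KIT cells. Fibroblast and stroma genes summed to 325, 467 and 1374 FPKM in THY1 cells of those ages. The part of these cells in the Cxcr4 and Cxcl12 differences was not tested.

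Against THY1 cells of the same age, Cxcl12 was lower in every reporter-sorted column, whereas Cxcr4 was lower at P7 and nearly level at P0. At P0, Cxcl12 was 39.97 times lower in OCT4-GFP than in THY1 cells (1.76 against 70.3 FPKM, difference -4.69), with 14.5% of genes higher and 21.9% lower by 2-fold, and 10.6% lower by 4-fold. Cxcr4 was nearly level between the same columns (21.8 against 21.2 FPKM, difference 0.04), and stayed level with the median of all genes after division by the germ cell level (-1.05 for Cxcr4, -1.04 for that median). Stroma genes summed to 80.6 FPKM in P0 OCT4-GFP and 6857 FPKM in P0 THY1, endothelial genes to 22.1 and 238 FPKM and mast cell genes to 0 and 337 FPKM, and their part in these differences was not tested. Against P7 THY1, Cxcr4 was lower in OCT4-GFP (difference -1.08), ID4-GFP (-1.41) and VASA THY1 cells (-2.33), each past 2-fold. By that rule 8.88% of genes were higher and 11.8% lower in OCT4-GFP, 9.1% and 13.3% in ID4-GFP, and 7.66% and 10.3% in VASA THY1 cells. These differences share the P7 THY1 column; against VASA THY1 cells in its place, Cxcr4 was higher in OCT4-GFP (1.25) and ID4-GFP cells (0.92). The VASA THY1 difference also passes 4-fold, as did 3.19% of genes. Cxcl12 was also lower than in P7 THY1, with differences of -0.42, -1.46 and -0.95 in the same 3 populations, past 2-fold in ID4-GFP alone; against VASA THY1 cells the first was 0.53 and the second -0.51.

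Between P7 and P0, the differences in OCT4-GFP cells had the opposite sign to those in THY1 cells for both genes; with VASA THY1 for P7 THY1 this held for Cxcl12 and not for Cxcr4, whose THY1 difference was then -2.04. Cxcl12 stood at 8.14 FPKM in P7 and 1.76 FPKM in P0 OCT4-GFP cells (difference 1.73), past 2-fold, where 2.49% of genes were higher and 3% lower. Cxcr4 stood at 11.9 FPKM in P7 and 21.8 FPKM in P0 OCT4-GFP cells (difference -0.82), short of 2-fold. The stroma genes summed to 116 FPKM in P7 and 80.6 FPKM in P0 OCT4-GFP cells, and Sertoli genes to 242 and 188 FPKM. Macrophage genes summed to 247 and 364 FPKM in the same 2 columns, endothelial genes to 11.4 and 22.1 FPKM, and lymphocyte genes to 2.55 and 7.47 FPKM. The part of these cells in the P7 against P0 differences was not tested. At P7, Cxcl12 was lower in ID4-GFP than in OCT4-GFP cells (difference -1.04, with 0.0218% of genes higher and 1.67% lower; -0.77 after quantile normalization) and Cxcr4 differed by -0.33. Stroma genes summed to 55.7 FPKM in ID4-GFP and 116 FPKM in OCT4-GFP cells and macrophage genes to 13.9 and 247 FPKM; the part of either in these differences was not tested.

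**Figure D2:**
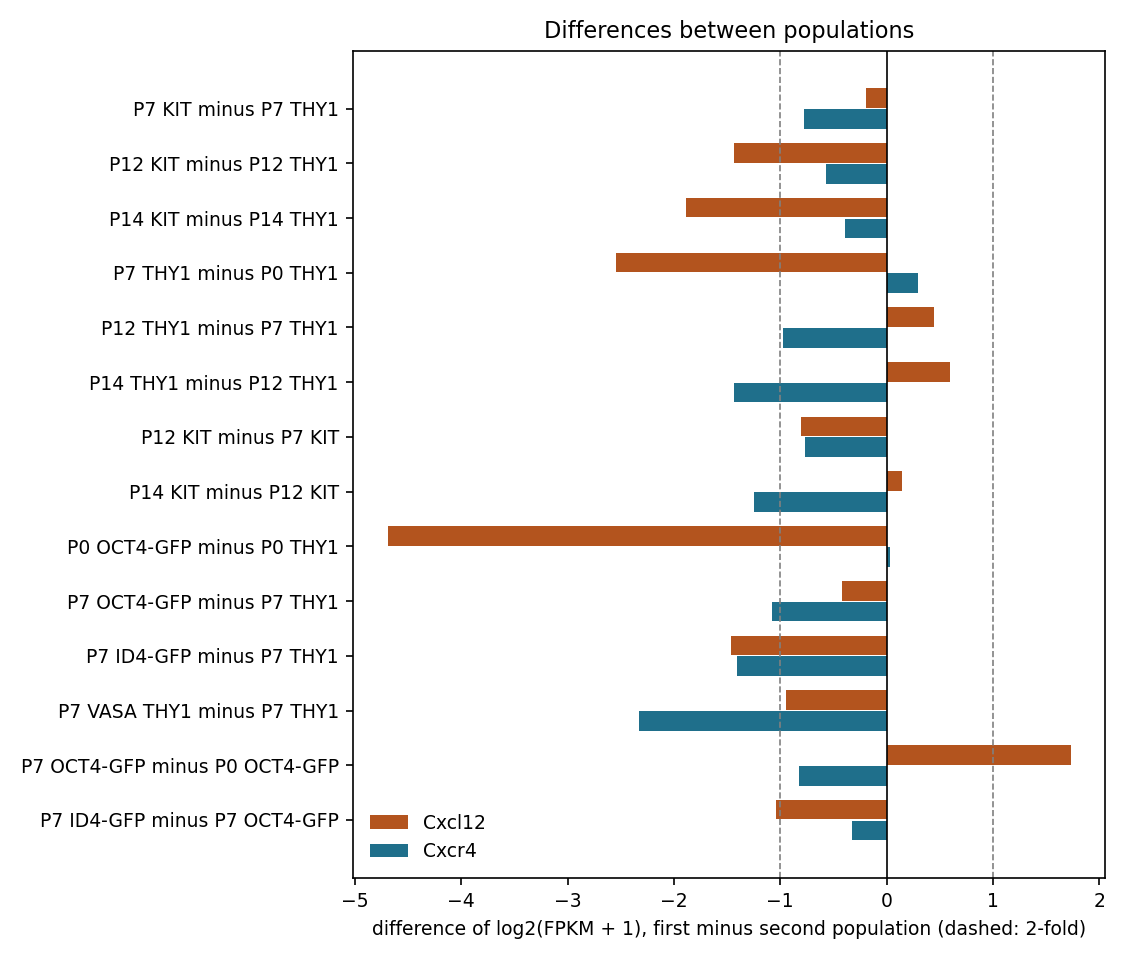
Differences of log2(FPKM + 1) for Cxcl12 and Cxcr4 in the 14 comparisons, the first-named population minus the second, with dashed lines at 2-fold. Cxcl12 has the longest bar, -4.69 for P0 OCT4-GFP against P0 THY1, where Cxcr4 has almost none (0.04); bars to the right of 1 occur for Cxcl12 in P7 against P0 OCT4-GFP cells alone.

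Cxcl12 varied with stromal genes across the columns. Over the 11 columns its log2(FPKM + 1) had a Pearson r of 0.90 with the median of the 9 fibroblast and stroma genes, and 0.80 without P0 THY1, which lies far above the rest. The same r was 0.85 for the peritubular myoid list, 0.59 for the endothelial, 0.33 for the Sertoli, 0.43 for the Leydig, 0.78 for the lymphocyte, 0.63 for the mast cell and 0.35 for the macrophage list. Without P0 THY1 these were 0.74 for peritubular myoid, 0.42 for endothelial, 0.27 for Sertoli, 0.38 for Leydig, 0.49 for lymphocyte, 0.25 for mast cell and 0.03 for macrophage genes. The columns share animals of one strain and steps of preparation and 2 genes can follow one admixed cell type, so these coefficients are descriptions. Among 10 genes most like Cxcl12, out of 10917 with 5 FPKM or more in at least 2 columns, were the collagen gene Col1a1 (r 0.96), Loxl1, which encodes an enzyme that crosslinks elastic fibres (0.96), Gas1, a membrane protein gene (0.95), the endothelin receptor gene Ednra (0.95) and Fbn1, which encodes the microfibril protein fibrillin (0.94). The others were Ifitm1, Col5a3, Pear1, Emp2 and Mxra8.

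The reporter-sorted columns show how Cxcl12 stood where stroma genes were lowest. P0 OCT4-GFP held the least Cxcl12, 1.76 FPKM, with a stroma median of 8.59 FPKM, whereas P7 OCT4-GFP held 8.14 FPKM with a median of 9.28 FPKM. P7 ID4-GFP held 3.43 FPKM of Cxcl12 with the lowest stroma median, 1.36 FPKM. There the stromal collagen genes Col1a2 and Col3a1 stood at 1.36 and 1.87 FPKM and Lum, a matrix proteoglycan gene, at 0.0266 FPKM, while Col1a1 stood at 16.8 FPKM. Fbln1, a matrix glycoprotein gene of the same list, stood at 29.5 FPKM there and made up most of the summed level of 55.7 FPKM; its r with Cxcl12 was 0.19.

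**Figure D3:**
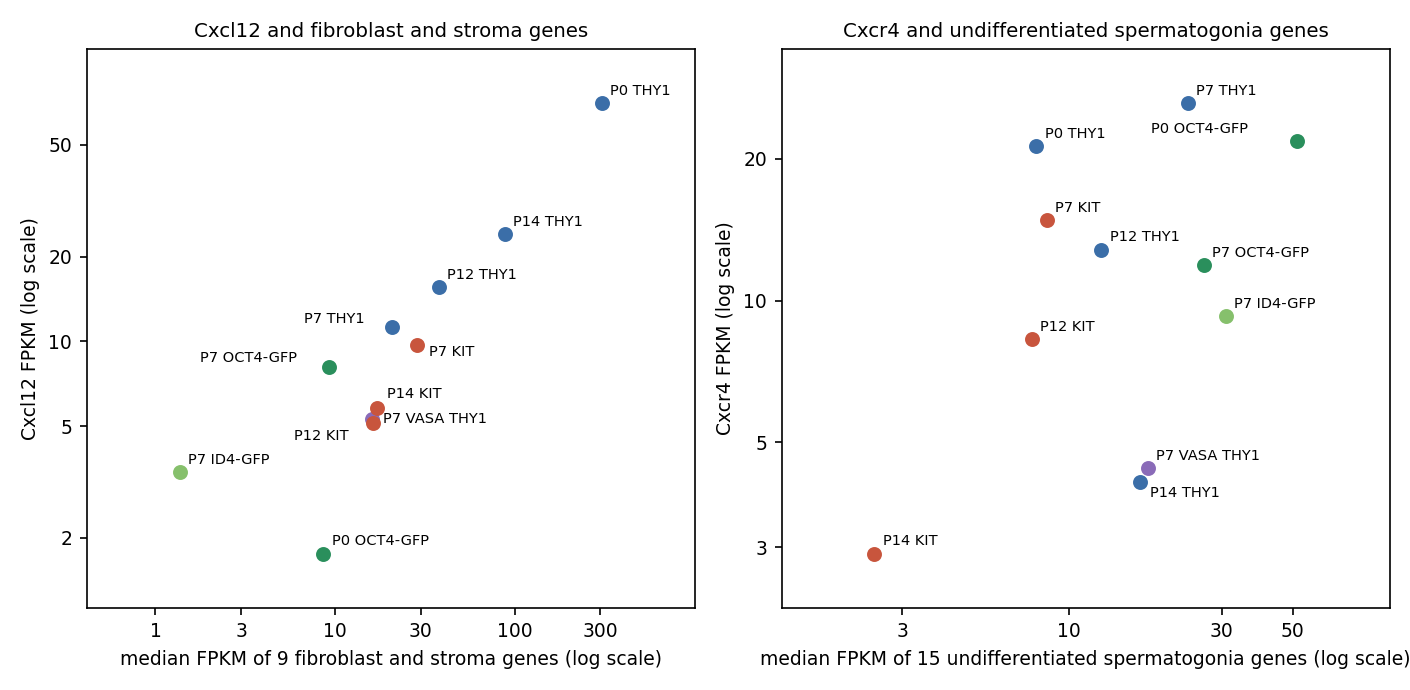
Left, Cxcl12 FPKM against the median FPKM of the 9 fibroblast and stroma genes; right, Cxcr4 FPKM against the median FPKM of the 15 undifferentiated spermatogonia genes; both axes are log scales, each point is 1 column, and colours mark the selection. The left points lie along a rising band from P7 ID4-GFP to P0 THY1 with P0 OCT4-GFP below it, and the right points scatter widely, with P14 KIT lowest on both axes.

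Cxcr4 had a looser relation to genes of undifferentiated spermatogonia. Its r was 0.44 with the median of that list of 15 genes, -0.71 with the differentiating list of 9 genes and -0.60 with the meiotic prophase list of 9 genes, over the same 11 columns. Single genes of the undifferentiated list ranged widely. Lhx1, a transcription factor gene, had the highest r at 0.68 and Neurog3, a transcription factor gene of progenitors, the lowest at -0.58. Gfra1 and Ret, which encode the receptor for the niche factor GDNF, had 0.51 and 0.56, and Zbtb16, Sall4 and Lin28a 0.07, 0.09 and -0.05. Without P0 THY1 the r was 0.57 with the undifferentiated, -0.66 with the differentiating and -0.53 with the meiotic prophase list. Zbtb16, Sall4 and Lin28a then had 0.46, 0.35 and 0.35, and Gfra1 and Ret 0.55 and 0.61. Lhx1 had 0.69 and Neurog3 -0.50 without that column. P14 THY1 cells had 4.11 FPKM of Cxcr4 beside 16.6 FPKM of Gfra1 and 49.1 FPKM of Id4, whereas P7 THY1 cells had 26.2 FPKM of Cxcr4 beside 29.0 FPKM of Gfra1 and 29.6 FPKM of Id4. Cxcr4 stood at 104% of the Gfra1 level in P0 THY1, 90.3% in P7 THY1, 55.3% in P12 THY1 and 24.8% in P14 THY1. It stood between 13.7% and 20.2% in the OCT4-GFP and ID4-GFP columns and at 11.8% in VASA THY1. In KIT cells it stood at 175%, 67.4% and 293% at P7, P12 and P14, the last beside only 0.992 FPKM of Gfra1.

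Markers of leukocytes and endothelial cells, which can carry CXCR4, also varied across these columns. The r of Cxcr4 was 0.68 with the endothelial, 0.60 with the macrophage and 0.63 with the lymphocyte list median. It was 0.55 with the mast cell and also 0.63 with the red cell list median. Only 1 of 4 red cell genes reached 5 FPKM in any column. Without P0 THY1 the r was 0.63 for endothelial, 0.53 for macrophage, 0.61 for lymphocyte, 0.47 for mast cell and 0.57 for red cell genes. Single macrophage genes ranged from 0.36 for Fcgr3 to 0.88 for Cd68, a macrophage lysosome gene. Among endothelial genes that reached 5 FPKM the r ran from 0.42 for Cdh5 to 0.81 for Pecam1. Of the lymphocyte list genes that reached 5 FPKM, Ptprc, the pan-leukocyte gene, had the highest r at 0.76 and Cd3g the lowest at 0.58. P7 ID4-GFP cells held 9.28 FPKM of Cxcr4 with none of 10 macrophage, 10 endothelial or 6 lymphocyte markers at 5 FPKM. Their summed levels there were 13.9, 7.02 and 0.934 FPKM, and the lymphocyte genes Cd3g and Ms4a1 were listed at 0. In P7 THY1 cells the same sums were 49.0, 161 and 15.5 FPKM, with Ptprc at 7.77 FPKM, and in P0 OCT4-GFP cells 364, 22.1 and 7.47 FPKM, with Ptprc at 1.40 FPKM. Mast cell genes summed to 114 FPKM in P7 THY1 and 337 FPKM in P0 THY1, and were listed at 0 in P7 ID4-GFP and P0 OCT4-GFP. How much of Cxcr4 came from these cells was not tested in any column.

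The 10 genes most like Cxcr4 were led by Dusp5, a phosphatase gene that acts on ERK kinases (r 0.96), and Ppp2r5a, a regulatory subunit gene of protein phosphatase 2A (0.96). Also among them were Smad7, an inhibitor of TGF-beta signalling (0.95), Flt1, a VEGF receptor gene (0.95), and Spry4, a Sprouty inhibitor of receptor tyrosine kinase signalling (0.94). The others were Myo1e, Fancb, Pcdh1, Lpcat2 and Fam84b. Dusp5 stood at 7.37 and 6.88 FPKM in P14 KIT and P14 THY1, and at 32.9 and 58.8 FPKM in P7 KIT and P7 THY1. Without P0 THY1, 8 of the 10 stayed among the 10 most like, against 6 of 10 for Cxcl12.

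Cxcl12 relative to Cxcr4 stood in THY1 cells at 3.31 at P0, 0.428 at P7, 1.22 at P12 and 5.87 at P14. The receptor was the higher one in P7 THY1 alone among these 4 columns; in the VASA THY1 library, which is also labelled P7, the ratio was 1.21. In KIT cells the ratio was 0.653, 0.620 and 1.99 at P7, P12 and P14. The ratio was lowest in P0 OCT4-GFP at 0.0807, where the receptor exceeded the ligand 12.4 times, and was 0.685 in P7 OCT4-GFP and 0.370 in P7 ID4-GFP. The ligand was the higher one in 5 of 11 columns. Across the 11 columns the 2 genes showed little relation (r 0.16).

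Within the chemokine family Cxcr4 was the leading receptor. It was the highest of 23 chemokine receptor genes in 10 of 11 columns and second in P7 OCT4-GFP, where the macrophage receptor gene Cx3cr1 stood at 11.94 FPKM against 11.89 FPKM. Its part in the summed level of these receptors ran from 21.7% in P0 THY1 to 80.8% in P7 ID4-GFP. Cxcl12 was the highest of 35 ligand genes in P0 THY1 and in P7 VASA THY1, where the next was Ccl25 at 4.52 FPKM. In the other columns it ranked between 2 and 5, and 11 in P0 OCT4-GFP. Cxcl1, a neutrophil attractant, was the leading ligand in P7 KIT, P7 THY1, P12 KIT and P12 THY1, at 22.4, 29.95, 51.3 and 140 FPKM. Pf4, a platelet and macrophage chemokine, led in both OCT4-GFP columns, at 60.3 FPKM at P0 and 39.4 FPKM at P7.

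**Figure D4:**
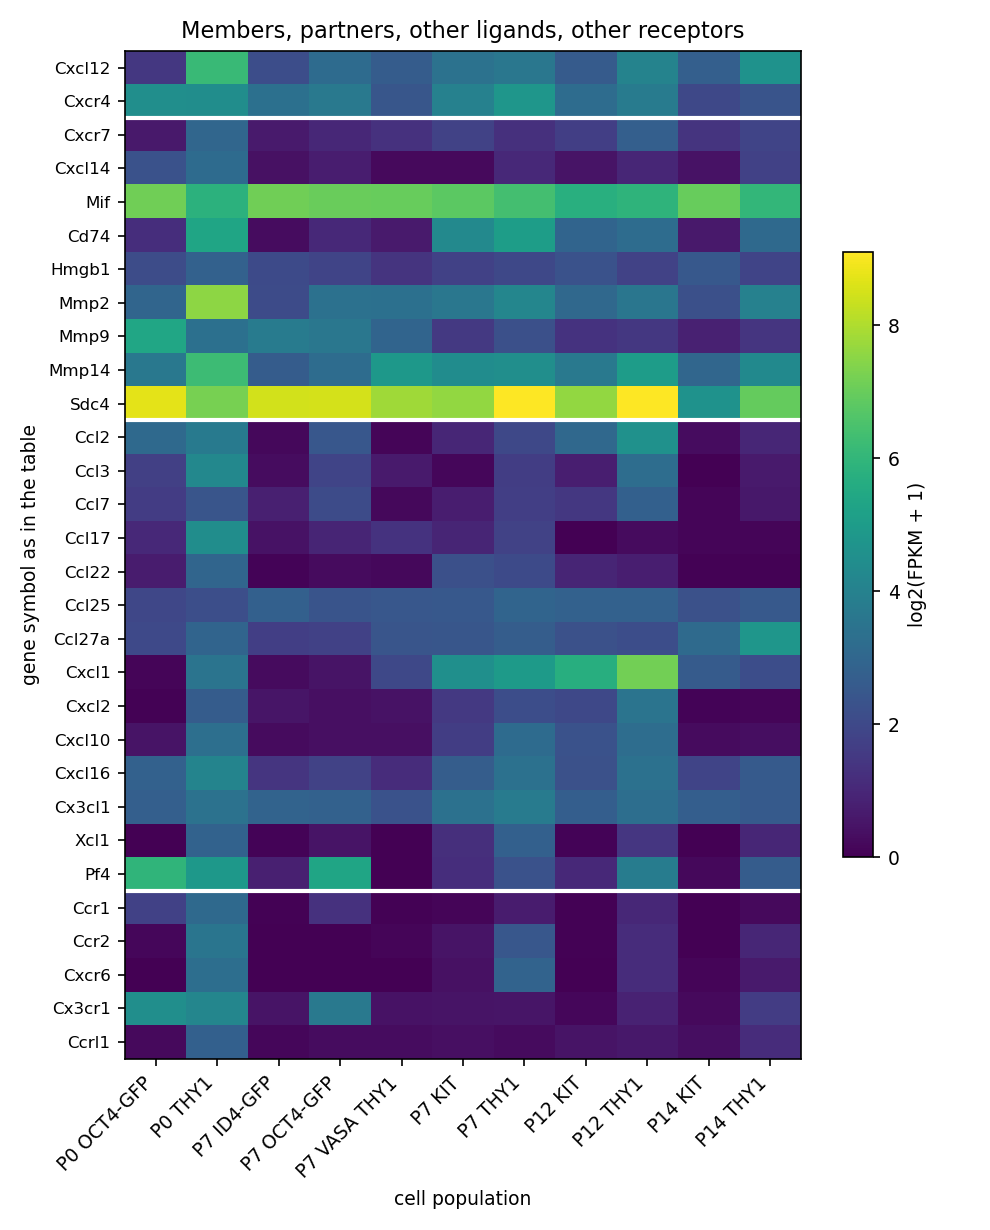
Levels as log2(FPKM + 1) of the 2 genes, 9 partner genes, 14 other chemokine ligands and 5 other chemokine receptors that reached 5 FPKM in at least 1 of the 11 columns; white lines part these blocks and gene symbols are those of the table. The Cxcr4 row is bright in most columns while the receptor rows at the bottom are dark in most columns outside P0 THY1, with Cx3cr1 brighter in both OCT4-GFP columns.

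The alternative receptor gene Cxcr7 was low in most columns. It stood at 6.99 FPKM in P0 THY1 and 5.73 FPKM in P12 THY1, and between 0.533 and 2.65 FPKM elsewhere; its r was 0.85 with Cxcl12 and 0.11 with Cxcr4. Of the 10 partner genes, which bind, cleave or present CXCL12 or share its receptor, 3 were lower by 2-fold and 0 higher in P12 KIT than in P12 THY1 cells, with a median of -0.79 over the 6 that reached 5 FPKM. Over all 10106 genes that did so, 6.51% were lower and 4.66% higher, with a median of 0.02. At P14, 4 of the 5 partners that could be counted were lower and 0 higher, with a median of -1.80, whereas of 10015 genes 15.7% were lower and 8.58% higher, with a median of 0.12. Sdc4, a heparan sulphate proteoglycan gene, was lower in KIT cells at all 3 ages (198, 194 and 23.8 FPKM against 546, 537 and 122 FPKM). Mmp2 and Mmp14, whose proteases can cleave CXCL12, were lower at P14 (3.63 and 7.01 FPKM against 15.1 and 18.99 FPKM). Between P7 and P0 THY1 cells 5 of 9 countable partners were lower and 1 higher (median -1.12), against 17.2% lower and 6.34% higher of 10880 genes (median 0.00). Mmp2 stood at 17.1 FPKM at P7 and 188 FPKM at P0.

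A list of 24 genes held those that carry the signal of CXCR4 together with those that dampen or end it. Of these, 18 could be counted between KIT and THY1 cells at P7 and at P12 and 16 at P14. At P7 and at P12 none was higher and 1 was lower, near the 2.73% and 6.51% of all genes that were lower. In both cases it was Rgs1, which turns off G protein signals and is known from lymphocytes (3.09 against 19.4 FPKM and 0.919 against 5.81 FPKM). At P14 only Jak2, a receptor-associated kinase gene, passed, higher in KIT cells (24.3 against 10.8 FPKM), where 8.58% of all genes were higher and 15.7% lower. The inhibitory G protein genes Gnai2 and Gnai3 stood between 51.4 and 116 FPKM in all columns, and the arrestin gene Arrb2, which ends receptor signalling, between 42.5 and 109 FPKM. Between P14 and P12 THY1 cells 6 of 18 countable genes were lower and 0 higher (median -0.49), against 16.6% lower and 15.9% higher of 10597 genes (median -0.07). Sertoli genes summed to 137 FPKM at P14 and 2211 FPKM at P12 in the same cells, and their part was not tested. The 6 lower signal genes included Elmo1, which couples the receptor to Rac (4.92 against 33.9 FPKM), Pxn, an adhesion adaptor gene (13.7 against 48.0 FPKM), and Jak2 (10.8 against 60.7 FPKM). In the same pair 11 of 34 other chemokine ligands could be counted, of which 7 were lower and 1 higher, beside those 16.6% and 15.9% of all genes, with Cxcl1 at 3.43 against 140 FPKM.

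Factors that regulate Cxcl12 or Cxcr4 were listed apart. Nrf1, whose protein activates CXCR4 in human cells and whose motif is in the Cxcr4 stretch above, stood between 20.8 FPKM in P14 THY1 and 43.3 FPKM in P7 THY1, the column with the most Cxcr4; over the 11 columns its r with Cxcr4 was 0.33. Yy1, a repressor of CXCR4 in human cells, stood between 26.2 and 52.6 FPKM. Hif1a, the hypoxia factor gene, stood at 60.1 FPKM in P14 KIT against 24.2 FPKM in P14 THY1. Epas1 of the same list went the other way, at 1.56 FPKM in P14 KIT against 6.83 FPKM in P14 THY1. Among the listed factors that reached 5 FPKM, the r with Cxcr4 ran from -0.60 for Ebf3 to 0.74 for Epas1. With Cxcl12 it ran from -0.72 for Nrf1 to 0.81 for Ebf1. Of 6 countable factors out of 7, 2 were higher and 2 lower in P14 KIT than in P14 THY1 cells, against 8.58% and 15.7% of all genes.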

How the data were processed

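Total RNA depleted of ribosomal RNA was made into directional libraries, per the labels' protocols. The submitters' processing notes list CASAVA, TopHat2 2.0.9, Cufflinks 2.1.1 and mm9, with no order of steps. The authors deposited FPKM values in 1 table; how libraries of a group were combined and which annotation was used are not given in the sources used here. The 8 bisulfite and 6 chromatin samples of the 30 samples were not analysed here. Differences of log2(FPKM + 1), counts at 2-fold with 5 FPKM or more in the higher column, list medians and likeness over 11 columns were calculated in pandas 2.3.3 and scipy 1.17.1 (numpy 2.4.6, Python 3.11.15; plots, matplotlib 3.10.9). The calculation was tested on simulated data. No test was run, since each group has 1 value. The alternatives were a pseudocount of 0.1, a floor of 1 FPKM, quantile normalization, division by the germ cell level, and the VASA THY1 library for P7 THY1. Genes named as most like were the 10 with the highest Pearson r; list genes were named only where they reached 5 FPKM in some column, except Ms4a1, named for being listed at 0. Older symbols were matched through synonyms of GRCm38.p6. Members and lists were chosen with earlier results of these data known.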

Additional observations from a re-analysis of the deposited data

Results flagged for a closer look

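Of 14 pairs of like contrasts compared, 4 had opposite directions; none of these differences between contrasts was tested, and each column holds 1 value. Cxcl12 differed by -2.54 (log2) between P7 and P0 in THY1 cells and by 1.73 in OCT4-GFP cells. Cxcl12 differed by 0.44 between P12 and P7 in THY1 cells and by -0.80 in KIT cells. Cxcr4 differed by 0.29 between P7 and P0 in THY1 cells and by -0.82 in OCT4-GFP cells. Between OCT4-GFP and THY1 cells Cxcr4 differed by 0.035 at P0 and by -1.08 at P7. With the VASA THY1 library standing in for P7 THY1, both Cxcr4 pairs had like directions: P7 against P0 was -2.04 in THY1 cells, and OCT4-GFP against THY1 at P7 was 1.25. Other pairs turned opposite with it. Cxcl12 then differed between OCT4-GFP and THY1 cells by -4.69 at P0 and 0.53 at P7. Cxcr4 then differed between P12 and P7 by 1.35 in THY1 and -0.77 in KIT cells. Both flagged P7 against P0 pairs and the flagged OCT4-GFP against THY1 pair use the same 4 columns. Fibroblast and stroma genes summed to 325 FPKM in P7 and 6857 FPKM in P0 THY1 cells, and to 116 FPKM in P7 and 80.6 FPKM in P0 OCT4-GFP cells; their part was not tested.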

How the results depend on the processing

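No paired analysis was possible because the table holds 1 value per group, and for the same reason no replicate could be left out. When VASA THY1 stood in for P7 THY1, Cxcl12 turned direction for P7 KIT (0.76) and P7 OCT4-GFP (0.53), passed 2-fold for P12 THY1 (1.40) and no longer did for P7 ID4-GFP (-0.51). Cxcr4 turned direction with it for P7 KIT (1.55), P7 OCT4-GFP (1.25), P7 ID4-GFP (0.92), P12 THY1 (1.35) and P7 against P0 THY1 (-2.04). After division by the germ cell level, Cxcl12 for P14 against P12 THY1 (-0.0325), Cxcr4 for P7 against P0 THY1 (-0.48) and Cxcr4 for P0 OCT4-GFP against P0 THY1 (-1.05) turned direction, while Cxcl12 in P7 VASA THY1 (-1.12) and Cxcr4 in P7 against P0 OCT4-GFP (-1.11) passed 2-fold. That division took the median of all genes to -1.04 from 0.03 in P0 OCT4-GFP against P0 THY1, the widest shift. With a pseudocount of 0.1, Cxcl12 in P7 VASA THY1 (-1.06) and Cxcr4 for P12 against P7 THY1 (-1.03) passed 2-fold. With quantile normalization the second did so (-1.08), and Cxcl12 for ID4-GFP against OCT4-GFP (-0.77) and Cxcr4 for P14 against P12 KIT (-0.89) no longer did. A floor of 1 FPKM changed none of 28 calls. It could bear only on Cxcr4 in P14 KIT against P14 THY1 (-0.39), where neither column reached 5 FPKM. Quantile normalization keeps the order of genes within a column, so no Cxcl12 to Cxcr4 ratio could cross 1 under it. The germ cell division cancels in that ratio. The ratio of the VASA THY1 library was 1.21 and that of P7 THY1 0.428. By Spearman's rho 3 of the 10 genes most like Cxcl12 and 4 of those most like Cxcr4 remained, and without P0 THY1 6 of the Cxcl12 list did. Ties in rho for the last places left out Ifitm1 for Cxcl12 (0.92) and Lpcat2 for Cxcr4 (0.95). The cause of these changes was not tested.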
